A study of Mus musculus with 6 samples.

Results

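The amino acid stress response was followed in mouse liver through 10 genes: the transcription factors Atf4, Atf5 and Ddit3 (Chop), the feedback and stress targets Trib3, Chac1 and Sesn2, the amino acid enzymes Asns, Psat1 and Phgdh, and the hormone gene Fgf21. They were taken by symbol from the deposited table of 40481 genes, in which each of the 10 has a single row, and all 10 passed the filter on low counts. Liver RNA of male C57BL/6 mice, 12 to 16 weeks old, was sequenced in 6 libraries, 3 of control and 3 of *Mttp-IKO* mice, and every library was made from the pooled RNA of 3 to 4 mice. Mice of both groups carried floxed Mttp alleles and the tamoxifen-inducible Villin Cre ERT2 transgene, whose promoter is active in the intestinal epithelium. *Mttp-IKO* mice received tamoxifen and lost intestinal Mttp, the transfer protein that loads lipid onto chylomicrons. Control littermates, called wild type in the labels, received vehicle, so that tamoxifen itself and the gene deletion cannot be told apart. Both groups then ate the methionine- and choline-deficient (MCD) diet for 3 weeks and were fasted for 4 h before the livers were taken. No group on another diet was analysed here, so the values compare genotypes on MCD and give no effect of the diet.

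When an amino acid runs short, uncharged tRNA activates the kinase GCN2, which phosphorylates the translation factor eIF2 alpha. Most translation then slows, while the Atf4 mRNA is translated more, so that its mRNA level is not a measure of ATF4 protein. ATF4 and its partners bind C/EBP-ATF response elements in genes for amino acid synthesis and transport, for tRNA charging, and for proteins that end the response or promote cell death. The same branch is entered from the endoplasmic reticulum through PERK. Liver secretes FGF21 during fasting, under low protein intake and under methionine shortage.

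The response elements are shown as the sequence through which ATF4 acts. The 10 genes were chosen as genes of this response, so a high share with the element restates that choice and is a description only. RefSeq promoters on GRCm38.p6, from 250 bases before the annotated start to 50 after it, were found for the 10 genes and searched on both strands for the core TGATGNAA. Matches lay in 4 of the 10 genes (40.0%), against 4.51% of 27025 genes with a promoter and 15 of the 58 other pathway genes with an entry (25.9%). Each match is printed 5′ to 3′ on the strand that carries it, with the core in capitals.
Asns: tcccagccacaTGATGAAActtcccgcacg
Fgf21: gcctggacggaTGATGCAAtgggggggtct
Chac1: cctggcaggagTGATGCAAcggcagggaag
Trib3: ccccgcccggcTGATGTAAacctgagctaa
The Asns match (chr6:7693214-7693243, minus strand) was the only 1 of the 4 on the strand of the gene, with its core at positions -23 to -16 from the start. The cores of Fgf21 (chr7:45615611-45615640, plus strand) and Chac1 (chr2:119351038-119351067, minus strand) lay upstream on the opposite strand, at -139 to -132 and -193 to -186. That of Trib3 (chr2:152344028-152344057, plus strand) lay at 15 to 22, just past the RefSeq start. A match is a description of letters and not of a bound site, and its absence in the other genes says only that these letters are not in these windows. Positions are counted from the RefSeq start, which is the 5′ end of the deposited gene for Atf4, Fgf21 and the more upstream start of Atf5. It lies inside the deposited gene for Asns, Chac1, Ddit3, Phgdh, Psat1, Sesn2 and the other Atf5 start. The Asns core and the end of the Asns stretch printed next are thus within that gene. For Trib3 the RefSeq start lies upstream of the deposited gene, and the core is upstream too. The Psat1 windows, the higher ending at 15925309, lie far inside a gene that starts at 15947337 on the minus strand.

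The 150 bases before the RefSeq start are given for Asns and Fgf21, since these genes share the element and had unlike orders of the pools. The core is again in capitals, in Fgf21 as its reverse complement, and both run on the strand of the gene, which is the minus strand (chr6:7693210-7693359 and chr7:45615491-45615640).
Asns: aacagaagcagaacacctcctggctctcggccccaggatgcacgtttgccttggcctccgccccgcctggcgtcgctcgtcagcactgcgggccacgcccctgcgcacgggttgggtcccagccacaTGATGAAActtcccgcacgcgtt
Fgf21: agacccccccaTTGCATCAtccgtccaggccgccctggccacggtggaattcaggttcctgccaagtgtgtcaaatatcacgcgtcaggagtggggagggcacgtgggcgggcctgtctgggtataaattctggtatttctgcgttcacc

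None of the 10 genes passed an adjusted p of 0.05 between the genotypes with edgeR's quasi-likelihood test. Of the 10, 1 gene, Trib3, had an unadjusted p under 0.05, against 23.0% of all genes. DESeq2 and limma-voom also called 0 of the 10. Over all 17287 genes tested, 694 passed (4.01%), of which 159 were higher in the *Mttp-IKO* group (0.920%) and 535 lower (3.09%). That count was 24 without control pool 1, 892 without control pool 2 and 21 without control pool 3. It was 55, 0 and 864 without *Mttp-IKO* pools 1, 2 and 3. Of the 10 genes, 6 were higher and 4 lower on average in *Mttp-IKO* pools, with a median log2 fold change of 0.35, where the median of all genes was 0.006. In 2 of the 10 genes, Ddit3 and Trib3, every *Mttp-IKO* value lay on 1 side of every control value, against 31.0% of all genes. Within the *Mttp-IKO* group the order of the pools differed from gene to gene. Leaving out *Mttp-IKO* pool 3 let Atf4 and Fgf21 pass the threshold, both higher. In that setting 864 of all 17854 genes tested passed, 302 of them higher.

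**Figure D1:**
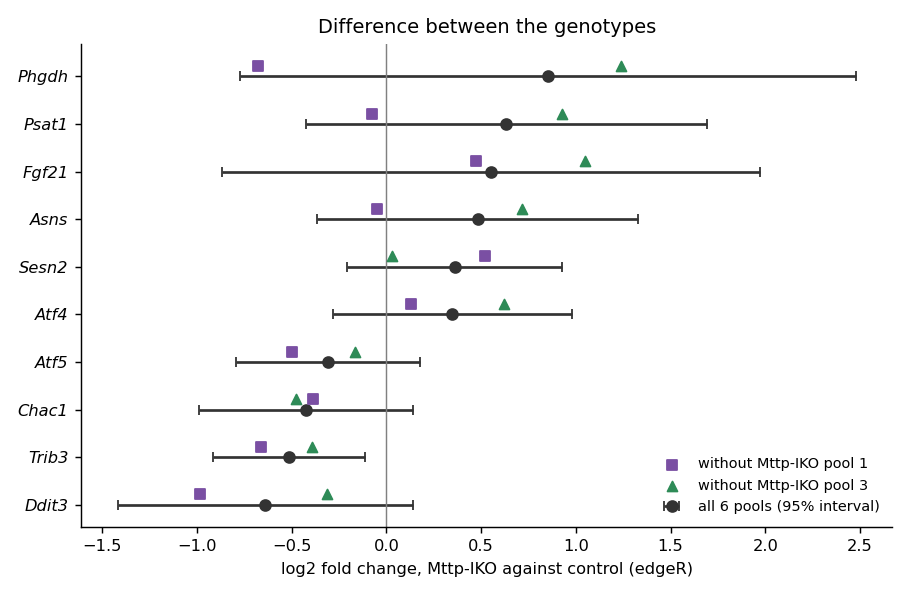
Log2 fold change (x axis, *Mttp-IKO* against control) of each of the 10 genes (y axis), with its 95% interval from edgeR over the 6 pools (circles) and the value without *Mttp-IKO* pool 1 (squares) or pool 3 (triangles). The interval crosses 0 in every gene except Trib3, and the squares of Asns, Psat1 and Phgdh lie below 0 while their circles lie above it.

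Totals ran from 25271585 to 36238734 reads on genes, so that 0 reads in a pool would allow up to 0.0828 to 0.119 CPM, counting error only. Values below are counts scaled to the size of the library (CPM) with the trimmed mean of M values (TMM), with SD over n = 3 pools, and p-values measure the spread between pools, which understates that between mice. Mttp of the liver itself, outside the reach of the Villin promoter, was at 90.4 to 186 CPM in the controls and 129 to 161 CPM in the *Mttp-IKO* group and does not check the genotypes. In *Mttp-IKO* pool 3 the short mRNAs were low. The 567 protein-coding genes under 1000 nt had a median log2 difference of -1.13 from the mean of *Mttp-IKO* pools 1 and 2, the 2162 genes of 1000 to 2000 nt of -0.46, and the 3215 genes of at least 6000 nt of 0.27. The 9 hepatocyte markers found under their listed symbols were abundant in each pool. They summed to 70708 to 103300 CPM in control and 127720 to 179230 CPM in *Mttp-IKO* pools, most of it from Alb. Mean Alb was 54150 CPM in control and 104750 CPM in *Mttp-IKO* pools. On average 7 of the 9 were higher and 2, Ttr and Hpx, lower. By the test 0 of the 9 passed, against 4.01% of all genes. In bulk liver, fewer cells of a type and less RNA per cell cannot be told apart.

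Atf4 (ENSMUSG00000042406, chromosome 15, 80255184 to 80257540) encodes the factor that is translated more in the response. It was at 86.0, 97.0 and 89.7 CPM in control pools 1 to 3 and, in the same order, at 148, 131 and 67.96 CPM in *Mttp-IKO* pools 1 to 3. The control pools were close together, and *Mttp-IKO* pools 1 and 2 lay above them and pool 3 below. Its log2 fold change was 0.35 (standard error 0.274, 95% interval -0.28 to 0.98, adjusted p = 0.484, edgeR). Without *Mttp-IKO* pool 3 it was 0.62 (adjusted p = 0.0399), and over the settings tried the adjusted p ran from 0.0399 to 0.796. Atf4 has a length of 1724 nt, in the class that was low in pool 3, and its own log2 difference of pool 3 from pools 1 and 2 was -1.03. With each library's trend with gene length removed, the log2 fold change of Atf4 was 0.48 (adjusted p = 0.207, edgeR). In that setting the median of all genes was 0.11, against 0.006 in the main fit.

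Atf5 (ENSMUSG00000038539, chromosome 7, 44812257 to 44816658) encodes a related factor that is abundant in hepatocytes. It was at 574, 654 and 577 CPM in the controls and 604, 467 and 385 CPM in the *Mttp-IKO* group, so that *Mttp-IKO* pool 1 lay within the control range and pools 2 and 3 below it (log2 fold change -0.31, 95% interval -0.80 to 0.18, adjusted p = 0.416, edgeR). In the GENCODE M21 annotation of the same build, Atf5 overlaps Nup62 by 571 nt and Il4i1 by 272 nt on the opposite strand. Whether strand was used in counting is not stated, and without it such reads cannot be told apart.

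Ddit3 (ENSMUSG00000025408, chromosome 10, 127290774 to 127296288) encodes CHOP, which promotes cell death when the stress is prolonged. Its levels were 12.9, 13.7 and 12.96 CPM in the controls and 12.0, 9.12 and 4.15 CPM in the *Mttp-IKO* group. The control pools were nearly equal, and each *Mttp-IKO* pool lay below them, pool 1 by little and pool 3 by the most. The log2 fold change was -0.64 (standard error 0.338, 95% interval -1.42 to 0.14, adjusted p = 0.299, edgeR), and -0.31 without *Mttp-IKO* pool 3 (adjusted p = 0.274). At 1713 nt, Ddit3 too is in a length class that was low in pool 3, where its log2 difference of pool 3 from pools 1 and 2 was -1.32, and 11.6% of the genes of that class were lower still. In GENCODE M21, Ddit3 overlaps Mars by 68 nt and Gm4189 by 15 nt on the opposite strand, and on the same strand by 2925 nt a second entry of the same name (ENSMUSG00000116429), for which no count was used here. The quantitative PCR primers designed for this gene in the study, shown because they fix the stretch of the mRNA that such an assay reads, were the following.
Ddit3 forward: ccaccacacctgaaagcagaa
Ddit3 reverse: tgaaaggcagggactca
Matched without mismatch to 141767 GENCODE M21 transcripts, they hit transcripts of Ddit3 alone and, in 1 of these, enclosed a product of 64 nt from exon 2 to exon 3 of 4 exons (chr10:127293741-127295365, GRCm38), with the end of the product in the coding sequence.

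Trib3 (ENSMUSG00000032715, chromosome 2, 152337422 to 152344032), a pseudokinase induced by ATF4 and CHOP that restrains the response, had 34.3, 37.0 and 40.9 CPM in the controls and 31.3, 25.5 and 21.7 CPM in the *Mttp-IKO* group. Each *Mttp-IKO* pool was below each control pool. The log2 fold change was -0.51 (standard error 0.174, 95% interval -0.92 to -0.11), with an unadjusted p of 0.0181 and an adjusted p of 0.135 (edgeR). It stayed between -0.69 and -0.38 over the 17 other settings, with adjusted p from 0.0671 to 0.408, so that the direction held in each of them and the threshold was passed in none. With 3 pools against 3, an exact permutation test cannot give a two-sided p below 0.1.

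Chac1 and Sesn2 differed from the other stress targets in the order of the pools. Chac1 (ENSMUSG00000027313, chromosome 2, 119351229 to 119354381), which encodes an enzyme that degrades glutathione, was at 10.2, 7.65 and 5.62 CPM in the controls and 5.54, 5.69 and 6.29 CPM in the *Mttp-IKO* group. Here the *Mttp-IKO* pools were close together, and the spread lay among the control pools (log2 fold change -0.42, 95% interval -0.99 to 0.14, adjusted p = 0.339, edgeR). Sesn2 (ENSMUSG00000028893, chromosome 4, 132492032 to 132510501), a leucine sensor that holds back the growth kinase complex mTORC1, was at 23.7, 19.7 and 20.1 CPM in the controls and 20.8, 22.4 and 38.4 CPM in the *Mttp-IKO* group. *Mttp-IKO* pool 3, the lowest pool for Atf4, Atf5, Ddit3, Trib3 and Fgf21, was the highest for Sesn2. The log2 fold change of Sesn2 was 0.36 (95% interval -0.21 to 0.93, adjusted p = 0.420, edgeR). Without *Mttp-IKO* pool 3 the Sesn2 value was 0.03. In GENCODE M21 the noncoding gene Gm12981 overlaps Sesn2 on the same strand by 6089 nt, from gene end to gene end. Any reads that fit both would have been left out, but whether their exons overlap in the annotation used for counting was not tested.

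**Figure D2:**
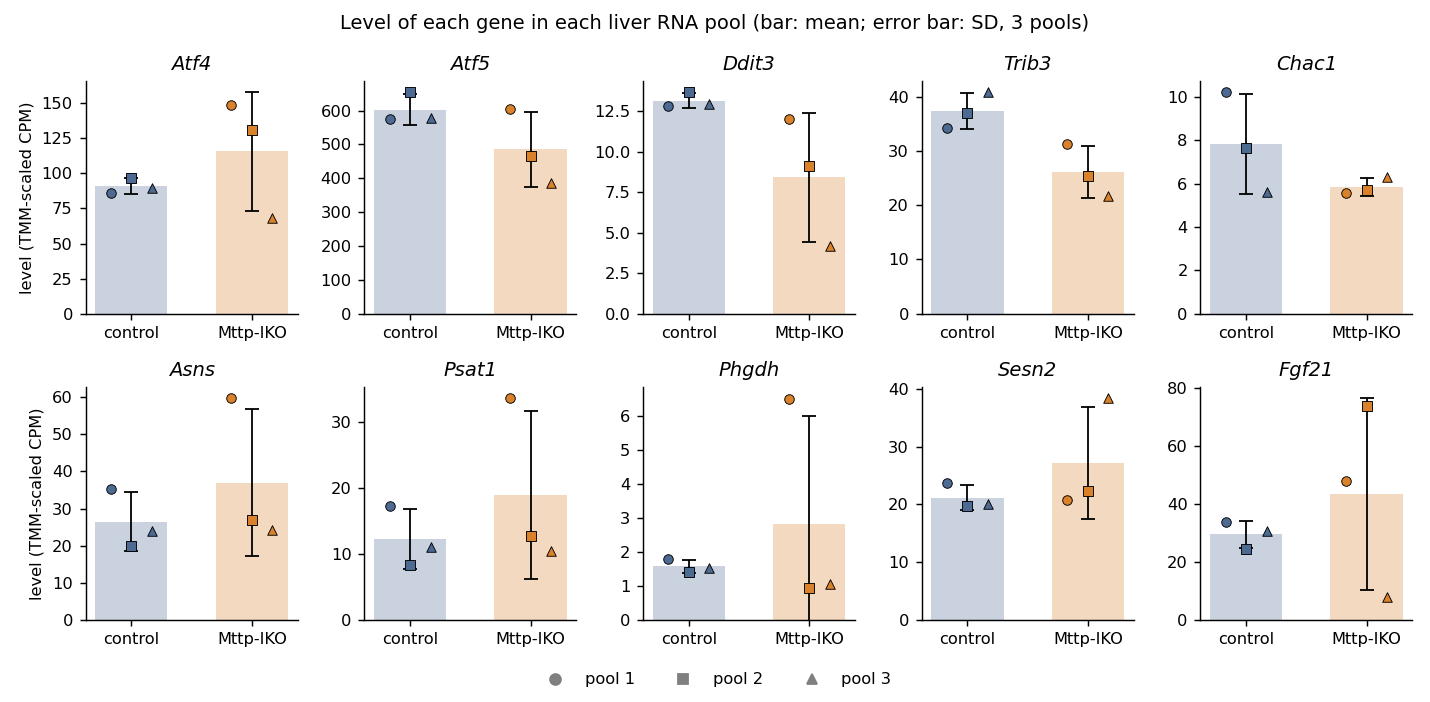
Level of each of the 10 genes (y axes, TMM-scaled CPM from 0) in control (blue) and *Mttp-IKO* (orange) pools. Points are pools, bars means and error bars SD over 3 pools, cut off at 0 for Phgdh. The *Mttp-IKO* points are spread more widely than the control points in 9 of the 10 genes on the log2 scale, and Chac1 is the exception.

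The 3 enzymes of amino acid synthesis were high in a single pool, *Mttp-IKO* pool 1. Asns (ENSMUSG00000029752, chromosome 6, 7675169 to 7693254), the asparagine synthetase, was at 35.3, 20.02 and 24.1 CPM in the controls and 59.7, 27.0 and 24.1 CPM in the *Mttp-IKO* group. Psat1 (ENSMUSG00000024640, chromosome 19, 15904678 to 15947337), an aminotransferase of serine synthesis, was at 17.2, 8.29 and 11.1 CPM in the controls and 33.5, 12.8 and 10.4 CPM in the *Mttp-IKO* group. In both genes *Mttp-IKO* pools 2 and 3 lay inside the control range, and control pool 1 was the highest of the controls. Phgdh (ENSMUSG00000053398, chromosome 3, 98313170 to 98339990), the dehydrogenase that opens the serine pathway, was at 1.79, 1.41 and 1.53 CPM in the controls and 6.51, 0.926 and 1.05 CPM in the *Mttp-IKO* group. These Phgdh values rest on 72, 51 and 49 reads in control and 202, 27 and 25 reads in *Mttp-IKO* pools, and a processed pseudogene, Phgdh-ps1, is annotated.

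Against the mean of *Mttp-IKO* pools 2 and 3, pool 1 was 2.34-fold higher for Asns, 2.90-fold for Psat1 and 6.60-fold for Phgdh. The log2 fold changes between the genotypes, 0.48 for Asns (95% interval -0.37 to 1.33, adjusted p = 0.471), 0.63 for Psat1 (-0.43 to 1.69, adjusted p = 0.446) and 0.85 for Phgdh (-0.77 to 2.48, adjusted p = 0.508, edgeR), were positive with this pool. Without it they were -0.051, -0.076 and -0.68. With limma-voom and all pools, the value of Phgdh was 0.29 (adjusted p = 0.830). The gene closest to Asns in its course over the 6 pools, of 12593 compared, was Psat1, with a root mean square distance of 0.139 between the log2 levels centred on the mean of the pools. It was followed by AW011738 (0.162) and Rassf4 (0.181), which are named with no statement on shared control.

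Fgf21 (ENSMUSG00000030827, chromosome 7, 45613907 to 45615490), the liver hormone of the response, was at 33.6, 24.4 and 30.6 CPM in the controls and 48.1, 73.8 and 8.01 CPM in the *Mttp-IKO* group. *Mttp-IKO* pools 1 and 2 were above the control pools and pool 3 below them, so that the highest *Mttp-IKO* pool held 9.21 times the level of the lowest, against 1.38 times among control pools. The log2 fold change was 0.55 (standard error 0.617, 95% interval -0.87 to 1.97, adjusted p = 0.630, edgeR). It was 1.05 without *Mttp-IKO* pool 3 (adjusted p = 0.0445) and -0.071 without *Mttp-IKO* pool 2 (adjusted p = 0.960). With limma-voom and all pools it was 0.085 (adjusted p = 0.956). Fgf21 is the shortest of the 10 genes, with 930 nt. Its log2 difference of pool 3 from pools 1 and 2, -2.88, exceeded in size the median of the genes under 1000 nt (-1.13) and their 10% quantile (-2.42). With the trend with length removed, its log2 fold change was 0.65 (adjusted p = 0.482, edgeR), where the median of all genes was 0.11.

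**Figure D3:**
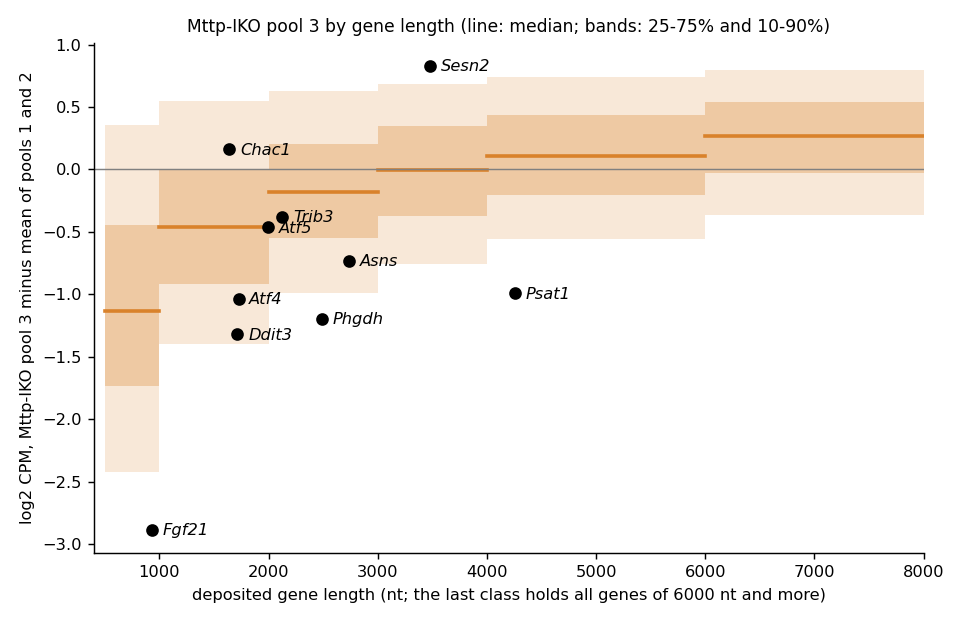
Log2 CPM of *Mttp-IKO* pool 3 minus the mean of pools 1 and 2 (y axis) against gene length in nt (x axis). Lines are medians of protein-coding genes in 6 length classes, bands their 25 to 75% and 10 to 90% ranges, and points the 10 genes. The median climbs from -1.13 under 1000 nt to 0.27 from 6000 nt. Fgf21, at -2.88, Psat1, at -0.99 with 4254 nt, and Phgdh, at -1.20, lie below the bands of their classes while Sesn2 (0.83) lies above. For Psat1 and Phgdh the mean of pools 1 and 2 includes the high pool 1 (33.5 and 6.51 CPM). Pools 2 and 3 were at 12.8 and 10.4 CPM for Psat1 and at 0.926 and 1.05 CPM for Phgdh.

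The courses of the other genes searched for neighbours were as follows. Among the genes closest to Fgf21 were Gm10736 (distance 0.314) and Mrps26 (0.352), which encodes a mitochondrial ribosomal protein. Both were low in *Mttp-IKO* pool 3, at 9.44 and 5.79 CPM, against 85.1 and 26.3 CPM in pool 1. Those closest to Ddit3 were Blvrb (0.069), the biliverdin reductase B, Ccdc12 (0.077) and 1600002K03Rik (0.081), and those closest to Atf4 were Fign (0.042), Apom (0.079) and Mzf1 (0.084). Asns was thus the gene of the 4 whose closest neighbour was another gene of the response.

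The variation between pools of a genotype was larger in *Mttp-IKO* than in control pools for 9 of the 10 genes, which was also so for 70.3% of all genes tested. The median SD of log2 CPM over the 10 genes was 0.16 in control pools and 0.66 in *Mttp-IKO* pools, where the medians of all genes were 0.19 and 0.34. In control pools the smallest SD was that of Ddit3 (0.05) and the largest that of Psat1 (0.53). In *Mttp-IKO* pools the SD was 1.69 for Fgf21 and 1.53 for Phgdh, larger than in 98.9% and 98.4% of all genes, and 0.90 for Psat1, larger than in 90.9%. For 7 of the 10 genes *Mttp-IKO* pool 1 was the highest of its group (30.6% of all genes), and for 7 of the 10 pool 3 was the lowest (40.1% of all genes). No gene of the 10 exceeded 90% of all genes in its control spread. The values are descriptions of 3 pools a genotype.

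**Figure D4:**
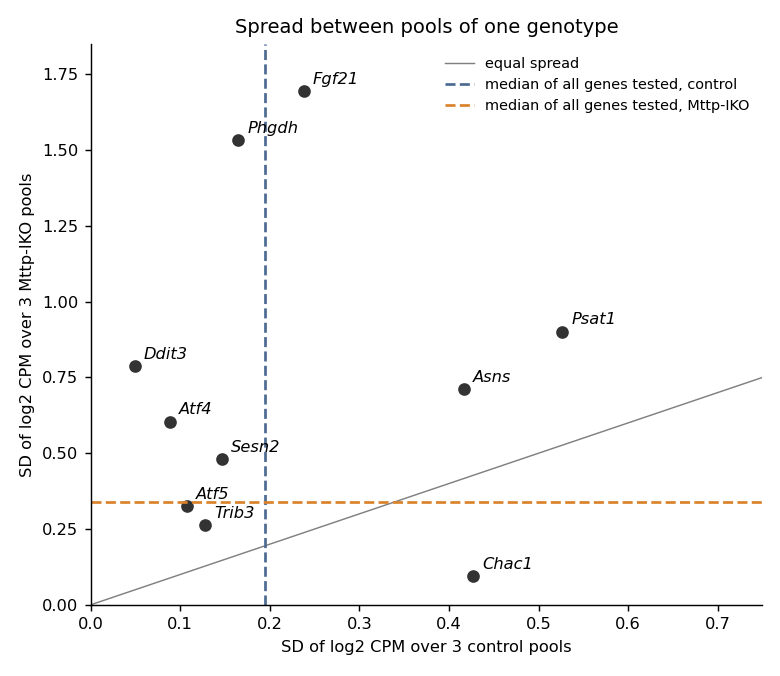
SD of log2 CPM over the 3 *Mttp-IKO* pools (y axis) against that over the 3 control pools (x axis) for the 10 genes, with the line of equal spread and dashed lines at the medians of all genes tested (0.19 and 0.34). Chac1 is below the line of equal spread, and Fgf21 (1.69) and Phgdh (1.53) are at the top.

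**Figure D5:**
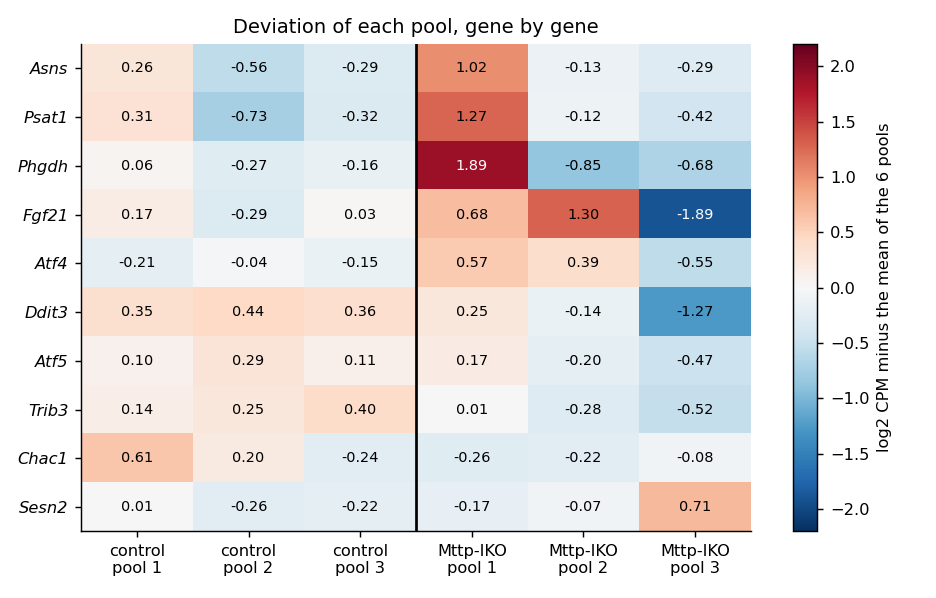
Log2 CPM of each gene (rows) in each pool (columns) minus the mean of the 6 pools, printed in each cell and coloured from blue (below the mean) to red (above it). Asns, Psat1 and Phgdh are highest in *Mttp-IKO* pool 1 (1.02, 1.27 and 1.89), and Fgf21 (-1.89) and Ddit3 (-1.27) are lowest in *Mttp-IKO* pool 3, where Sesn2 is at 0.71.

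Levels were compared between genes per kilobase of gene length only. Atf5 was the most abundant, at 302 ± 22.9 CPM per kilobase in control and 244 ± 55.5 in *Mttp-IKO* pools, and it was the only gene whose lowest pool lay above the highest pool of the next. Atf4 followed with 52.7 ± 3.26 and 67.1 ± 24.5, and Fgf21 with 31.8 ± 5.07 and 46.6 ± 35.6 CPM per kilobase. Then came Trib3, Asns, Sesn2, Ddit3, Chac1 and Psat1, with means over the 6 pools from 14.9 to 3.65, each overlapping its neighbour. Phgdh was last, at 0.634 ± 0.0764 in control and 1.14 ± 1.28 CPM per kilobase in *Mttp-IKO* pools.

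Around these genes, 74 further genes of the pathway were read in 7 lists, of which 73 were tested. A single gene of the 73, Ddit4, passed the threshold, against 4.01% of all genes, and that share also stands beside each list below. An unadjusted p under 0.05 was found for 8 of the 73, against 23.0% of all genes. Of the 73, 42 were higher and 31 lower on average, with a median log2 fold change of 0.08. Ddit4, a stress-induced inhibitor of mTORC1, rose from 50.8, 29.9 and 36.4 CPM in control pools to 95.6, 87.2 and 75.5 CPM in the *Mttp-IKO* group (log2 fold change 1.14 with a standard error of 0.217, adjusted p = 0.0342 by edgeR). Every *Mttp-IKO* pool was above every control pool. In either direction the ranges of the genotypes were apart in 9 of the 73 genes, against 31.0% of all genes. The call held without *Mttp-IKO* pool 3 (adjusted p = 0.0321) and was lost without each of the other pools, with adjusted p = 0.0706, 0.0644 and 0.163 without control pools 1, 2 and 3 and 0.0832 and 0.129 without *Mttp-IKO* pools 1 and 2, while the log2 fold change stayed between 0.96 and 1.36. In the same list of factors and feedback targets, Atf3, an early stress factor, was at 30.4, 21.7 and 30.5 CPM in the controls and 18.1, 8.44 and 15.4 CPM in the *Mttp-IKO* group (log2 fold change -0.98, adjusted p = 0.0983, edgeR).

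Of the 10 genes of eIF2 alpha kinases, their partners and phosphatase subunits, 0 passed. Against 23.0% of all genes, 3 of the 10 had an unadjusted p under 0.05 (edgeR). These were Eif2ak4, which encodes GCN2 (log2 fold change 0.63, adjusted p = 0.165), its activator Gcn1l1 (0.39, adjusted p = 0.162) and Ppp1r15b, which directs the phosphatase to eIF2 alpha (0.49, adjusted p = 0.212). For 8 of these 10 genes *Mttp-IKO* pool 3 was the highest of its group, against 40.9% of all genes. Eif2ak4 was at 21.7, 19.3 and 19.3 CPM in the controls and 25.05, 24.97 and 43.8 CPM in the *Mttp-IKO* group, and is 7457 nt long, a length at which genes were higher in that pool.

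The amino acid enzymes and aminoacyl-tRNA synthetases gave 0 calls of 10 and of 12. In both lists 0 genes had an unadjusted p under 0.05, against 23.0% of all genes (edgeR). The mitochondrial folate enzyme gene Aldh1l2 was at 21.2 CPM in *Mttp-IKO* pool 1 and between 2.56 and 4.77 CPM in the other 5 pools (log2 fold change 1.44, adjusted p = 0.262, edgeR). Got1, the gene of the cytosolic aspartate aminotransferase, had the opposite order, with 176 CPM in *Mttp-IKO* pool 1 but 810 and 1239 CPM in the other 2 of its group, against 223 to 401 CPM in control pools (log2 fold change 1.23, adjusted p = 0.259). For 9 of the 12 synthetase genes, which charge tRNAs with amino acids, *Mttp-IKO* pool 1 was the highest of the 6 pools, against 14.3% of all genes. Iars was at 67.2, 71.1 and 64.0 CPM in the controls and 100.03, 79.6 and 69.7 CPM in the *Mttp-IKO* group (log2 fold change 0.30, adjusted p = 0.335).

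Of the amino acid transporters, 9 of 10 were tested and 0 passed. An unadjusted p under 0.05 was found for 0 of the 9, against 23.0% of all genes (edgeR). Slc7a11, the cystine importer, was named after its values were seen. In *Mttp-IKO* pool 1 it had 47.4 CPM, while pools 2 and 3 had 4.73 and 5.24 CPM, with 18.8, 5.49 and 17.2 CPM in control pools, so that its log2 fold change of 0.47 (adjusted p = 0.787) rested on pool 1. Slc38a2, a carrier of small neutral amino acids, was instead highest in *Mttp-IKO* pool 3, at 415 CPM against 177 to 210 CPM in the other 5 pools (log2 fold change 0.42, adjusted p = 0.493).

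Among 9 genes of FGF21 receptors and upstream factors, 0 passed. An unadjusted p under 0.05 was found for 2 of the 9, against 23.0% of all genes (edgeR). Ppargc1a, the coactivator of oxidative metabolism, was at 29.0, 40.6 and 38.1 CPM in the controls and 45.5, 98.5 and 95.7 CPM in the *Mttp-IKO* group (log2 fold change 1.15, adjusted p = 0.0724). Fgfr1 was at 48.3, 60.3 and 63.9 CPM in the controls and 24.4, 31.7 and 46.8 CPM in the *Mttp-IKO* group (log2 fold change -0.75, adjusted p = 0.129). The co-receptor gene Klb had a log2 fold change of 0.40 (adjusted p = 0.457). The ranges of the genotypes were apart for 2 of the 9, Ppargc1a and Fgfr1, against 31.0% of all genes, and not for Klb. Of 12 chaperones and XBP1 targets of the endoplasmic reticulum, 0 passed. Calr, the calcium-binding chaperone calreticulin, alone had an unadjusted p under 0.05, against 23.0% of all genes. Its log2 fold change was -0.54 (adjusted p = 0.167, edgeR).

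Markers of other cells were read beside these values. The exocrine pancreas uses several of the 10 genes at high levels, and its 10 markers summed to 5.90 to 7.18 CPM in the controls and 3.10 to 6.51 CPM in the *Mttp-IKO* group. Cela1 gave most of these reads, while Pnlip, the pancreatic lipase, had 0 to 4 reads and Cpa1 0 to 11 reads a pool. The 9 macrophage markers found summed to 628 to 1059 CPM in the controls and 371 to 743 CPM in the *Mttp-IKO* group. By the test 2 of the 9 were lower, against 3.09% of all genes. On average 8 were lower and 1, Marco, was higher (log2 fold change 1.31, adjusted p = 0.195, edgeR). The 10 stellate cell markers summed to 949 to 1754 CPM in the controls and 486 to 536 CPM in the *Mttp-IKO* group. By the test 7 of the 10 were lower, against the same 3.09% of all genes. Both sums were highest in control pool 1, which was the highest control for 6 of the 10 genes (Asns, Psat1, Phgdh, Chac1, Sesn2 and Fgf21; 36.9% of all genes). In *Mttp-IKO* pool 1 the stellate sum was the lowest of the group (486 CPM) and the macrophage sum the highest (743 CPM). Striated muscle markers were at 89.9 and 730 CPM in control pools 1 and 2 and between 1.01 and 1.64 CPM in the other 4 pools, and the 10 small intestine markers at 1454 to 2524 CPM in the controls and 963 to 3056 CPM in the *Mttp-IKO* group, most of it from Apoa4, which liver also makes. The part of these cells in the values of the 10 genes was not tested.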

How the data were processed

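The authors aligned reads of ribosome-depleted liver RNA with STAR 2.5.1a (GRCm38, Ensembl) and took the number of reads of each gene from featureCounts 1.4.6-p5, leaving out those that aligned to several places or to several genes. The deposited counts are not normalized, and the deposited CPM and RPKM columns follow from them and were used only as a check. The table of all pools holds 40481 of the 41388 deposited genes with the same counts; 276 repeated lines were dropped. Genes were kept by filterByExpr (minimum count 10, minimum total 15), scaled by TMM (factors 0.898 to 1.11) and compared by the quasi-likelihood test of edgeR 4.0.16 in R 4.3.3. P-values were adjusted after Benjamini-Hochberg over the 17287 genes tested, and 0.05 was the threshold. Log2 CPM used a prior count of 2. The test was checked on counts simulated with the variation typical of a gene's level and without the low short mRNAs of *Mttp-IKO* pool 3. That check does not cover genes that vary more. Alternatives were other scalings, DESeq2 1.42.0, limma-voom (limma 3.58.1), robust dispersion, other filters, protein-coding genes, a replicate block, removal of the loess trend (span 0.3) with gene length, and leaving out each pool.

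The 10 genes and the lists of pathway and marker genes were chosen with earlier results of these data known. Named were the 10 genes, up to 5 genes of smallest p in each pathway list, genes past the threshold, and the 3 closest genes (average log2 CPM of at least 1) to Fgf21, Ddit3, Atf4 and Asns. A gene that this rule names is not reported here. No pair of pools agreed to within sampling noise. Promoters came from RefSeq (GRCm38.p6) and transcripts from GENCODE M21 (GRCm38). Tf, among the hepatocyte markers, and Emr1, an older name of Adgre1, were not found under those symbols. Figures were drawn with matplotlib 3.10.9.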

Additional observations from a re-analysis of the deposited data

How the results depend on the processing

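Over 17 other settings for each of the 10 genes (170 comparisons), 164 kept direction and side of the threshold, 2 passed it (Atf4 and Fgf21 without *Mttp-IKO* pool 3) and 4 turned direction, each with a pool left out. Without *Mttp-IKO* pool 3, 864 of all 17854 genes tested passed. With each pool left out in turn, Asns ran from -0.051 to 0.73, Psat1 from -0.076 to 0.95, Phgdh from -0.68 to 1.27 and Fgf21 from -0.071 to 1.05 (log2 fold change), and the number of the 10 genes past the threshold from 0 to 2. With all pools kept, sizes moved too: Fgf21 was 0.085 with limma-voom and 0.14 with the replicate block, against 0.55, and Phgdh 0.29 and 0.30, against 0.85. With total counts Atf4 was 0.17, Sesn2 0.18, Asns 0.31 and Fgf21 0.35, and with the length trend removed Atf5 was -0.17 and Chac1 -0.24. Among the other pathway genes the number past the threshold ran from 0 to 2 with a pool left out, and was 0 with total counts, 2 without a filter, and 3 with DESeq2 and with the replicate block, against 1. The Ddit4 call was also lost with total counts (adjusted p = 0.0582). Over all genes the count of 694 (159 higher, 535 lower) became 1995 with DESeq2 (657 higher, 1338 lower), 428 with limma-voom and 0 to 892 with a pool left out. The split was 112 higher and 907 lower with total counts, where the median log2 fold change of all genes was -0.17, and 358 higher and 512 lower with the length trend removed, where it was 0.11, against 0.006. The log2 values of the 10 genes under these settings are to be read against those medians. The cause of these differences was not tested.

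Pools of the same number were not treated as pairs in the main test, and whether they belong together is not stated. The correlations of their deviations from the group means were 0.139, 0.112 and 0.007, and 5 of 6 pools were closest to the pool of their own number. With the replicate block 592 genes passed over all genes and 0 of the 10. The number of pools limits the intervals, and for Phgdh the depth does too, with 25 to 202 reads a pool.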
